A study of Mus musculus with 27 samples.

Results

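Lungs of fetuses from blastocysts derived in vitro (the group labelled EG in vitro) were compared with lungs of fetuses from blastocysts that had developed in vivo (EG in vivo), where the blastocysts of both groups had been transferred to pseudopregnant females. The members were chosen by the sample titles, a rule that uses no measured value: 18 of the series' 27 arrays, which are 6 of its 9 pools, with 3 pools of 3 technical arrays on each side. All came from the left lung lobe of male fetuses of C57BL/6 X BALBc mice at day 18 of gestation. The remaining 9 arrays were a control group of fetuses from naturally ovulating females, with no transfer, and their levels are given beside the results. What separates both transfer groups from the control is more than the transfer step, since the recipients were pseudopregnant. By the labels, the transfer groups differ from each other in where the embryo developed up to the blastocyst stage. A separate array run of either group, if there was one, cannot be told apart from this. The labels do not say how many fetuses or litters a pool held, how days of gestation were counted in recipients, or whether the 2 groups' arrays were run together; in GEO the in vivo-derived samples do not run on from the other records. P-values and intervals therefore measure the spread between these pools.

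Embryos produced or cultured outside the oviduct spend the cleavage divisions, when parental methylation marks are being reset over most of the genome and held at imprinted genes, in a defined medium. Transfer into a pseudopregnant recipient is needed for any such embryo to develop further. A group of in vivo blastocysts that were also transferred gives a comparison in which both sides went through that step. In mouse lung the last days before birth cover the saccular stage: alveolar type II cells fill with surfactant, type I cells flatten into the gas exchange surface, club and ciliated cells mature in the airways, sodium channels prepare for the removal of lung liquid, glucocorticoid signalling drives much of this maturation, and proliferation declines.

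The arrays measured bead signal for 45281 probes, and 22958 probes that were detected in at least 1 group were tested. Levels below are background-corrected, quantile-normalised log2 signals averaged over a pool's 3 arrays, where a difference of 1 is a 2-fold change, and each gene is represented by its brightest probe (11945 genes). Between 19762 and 22794 probes were detected on the 18 transfer arrays, and arrays of 1 pool correlated at 0.989 or more. Replicate 3 stood apart in both groups. Its arrays had median raw signals of 113 to 127, against 143 to 170 for replicates 1 and 2, and the first principal component of the 6 pools, with 74.1% of the variance, separated replicate 3 from the others. The SD over probes of the difference between 2 pools was 0.27 for the replicates numbered 1, 0.24 for those numbered 2 and 0.40 for those numbered 3, while within a group it was 0.25 for replicates 1 and 2 of EG in vitro, 0.26 for those of EG in vivo, and between 0.52 and 0.68 for every within-group pair that held replicate 3. Replicates 1 and 2 lay about as near to either of these pools of the other group, with SDs of 0.22 to 0.27, as to each other, and replicate 3 lay nearer to its counterpart than to its own group. Deviations from the group means correlated at 0.50, 0.52 and 0.75 in same-numbered pools. Replicate 1 of EG in vitro correlated with replicate 2 of EG in vivo at 0.70 and replicate 2 with replicate 1 at 0.37, so numbers 1 and 2 were not paired better than crosswise, and replicate 3 alone stood apart. A second fit took the replicate number as a block.

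The sex label and the tissue label were checked first. Each of the 18 transfer arrays detected Kdm5d, Uty and Eif2s3y, which lie on the Y chromosome, and Nkx2-1, the transcription factor that defines lung epithelium, stood between 13.06 and 13.54 in the 6 pools. Xist, the RNA that coats the inactive X chromosome of females, was at 5.45 and 5.41 in in vitro-derived pools 1 and 2, which detected it on 6 arrays, and at 4.56 in pool 3, with 4.59, 4.56 and 4.83 in the in vivo-derived pools, where no array detected it. The library labelled control replicate 1 held Xist at 10.90, which goes against a pool of males alone. It enters the comparison through the joint normalisation, the choice of probes and the shared estimate of the spread. A fit without it, on the same normalised levels and probes, again called 0 probes.

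No probe differed between the groups past the threshold. With limma's moderated test and Benjamini-Hochberg adjustment at 0.05, 0 of 22958 probes (0%) passed, and the smallest adjusted p was 0.9999. At an unadjusted p under 0.05, 85 probes (0.370%) were higher and 200 (0.871%) lower in lungs from in vitro-derived blastocysts, 285 in all. The fit with the replicate number as a block called 0 of 22958 (0%) as well, with a smallest adjusted p of 0.9997, and had 325 probes (1.42%) higher and 495 (2.16%) lower at the unadjusted level, 820 in all. No gene named below passed in either of these fits, and each is described by its levels and the 95% interval of its difference, which covers that gene alone.

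The intervals say how large a difference these pools leave room for. Differences (EG in vitro minus EG in vivo) had a median of -0.01 and an SD of 0.18 over probes, and 95% of them lay between -0.32 and 0.40. For 20053 probes, 87.3%, the whole 95% interval lay within a 2-fold change in either direction, and for 54.5% within 1.5-fold. With the block these shares were 96.7% and 78.1%. They include probes near the background in both transfer groups. For 144 of the 11945 genes the brightest probe was detected on no transfer array and was kept through the control alone. The median half-width of the interval was 0.43 without the block and 0.31 with it. All 3 in vitro-derived pools lay above all 3 in vivo-derived pools for 140 genes (1.17%) and below for 507 genes (4.24%), and these are the shares against which the lists below can be read. Over probes the shares were 1.82% and 3.52%. At an unadjusted p under 0.05 the genes numbered 21 higher (0.176%) and 132 lower (1.11%), and with the block 90 higher (0.753%) and 313 lower (2.62%). Replicate 3 of EG in vivo held the highest of the 6 levels for 42.4% of all genes.

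Genes of the mature distal epithelium had small differences, mostly with the lower mean in lungs from in vitro-derived blastocysts. Among type II cell and surfactant genes 24 were measured and 0 passed the test; 20 had the lower mean in EG in vitro and 4 the higher, with a median difference of -0.20. Over all genes the median was -0.03, and 7064 of 11945 had the lower mean in EG in vitro, so counts of lower means in any list start from a majority. In 5 of the 24 type II and surfactant genes the 3 in vitro-derived pools all lay below, and in 0 above. The shares over all genes were 4.24% and 1.17%. The median was -0.03 between the pools numbered 1, -0.10 between those numbered 2 and -0.49 between those numbered 3, and it was -0.11 with replicate 3 of EG in vivo left out and -0.04 with replicate 3 of every group left out. Replicate 3 of EG in vivo held the highest of the 6 levels for 17 of the 24 genes. In the control group the list's mean level was 12.1, against 8.81 in the in vitro-derived and 9.02 in the in vivo-derived group. In bulk lobes, fewer cells of a type and less RNA per cell cannot be told apart.

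Sftpc encodes surfactant protein C, the most specific product of type II cells, and was at 13.64, 13.65 and 13.51 in the in vitro-derived pools and at 13.70, 13.76 and 14.03 in the in vivo-derived pools, with 14.83, 14.84 and 14.65 in controls. The groups did not overlap, yet the gap between the nearest pools was smaller than the spread among the in vivo-derived pools, and the difference was -0.23 (95% interval -0.52 to 0.06). Abca3, the lipid pump of the lamellar body in which surfactant is stored, was at 12.05, 11.94 and 11.91 against 12.06, 12.13 and 12.55, a difference of -0.28 (-0.62 to 0.05). Lamp3, a membrane protein of the same organelle, was at 7.82, 7.86 and 7.53 against 8.21, 8.07 and 8.33, with 11.78, 11.69 and 12.21 in controls. Its difference of -0.46 had an interval below 0 (-0.85 to -0.08) with no adjustment over genes. Napsa, an aspartic protease that helps to process surfactant protein B, likewise had its in vitro-derived pools below, at 9.61, 9.41 and 9.40 against 9.61, 9.78 and 10.73, where the first pools of both groups were equal to the second decimal. Without replicate 3 of EG in vivo the differences were -0.13 for Sftpc, -0.13 for Abca3, -0.40 for Lamp3 and -0.22 for Napsa.

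Other surfactant genes overlapped between the groups. Sftpb, without whose protein newborn lungs cannot hold air, was at 8.58, 8.76 and 8.89 against 8.82, 9.02 and 9.16, a difference of -0.25 (-0.75 to 0.24). Sftpd, a collectin of innate defence, had the list's most negative difference, -0.76 (-1.76 to 0.25), which came with 6.69, 6.11 and 5.77 against 6.73, 6.12 and 8.0. The 2 lower-numbered pools of both groups agree within 0.1 and the third pools differ by over 2. Sftpa1 had 7.45, 6.51 and 7.40 against 7.72, 6.77 and 8.17. Lpcat1, which makes the saturated phospholipid of surfactant, had a difference of -0.28 (-0.73 to 0.17), which was -0.08 without replicate 3 of EG in vitro. For every one of these genes the controls were higher than all 6 transfer pools, for Sftpd by more than 5 log2 units at 13.62, 13.90 and 13.89.

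**Figure D1:**
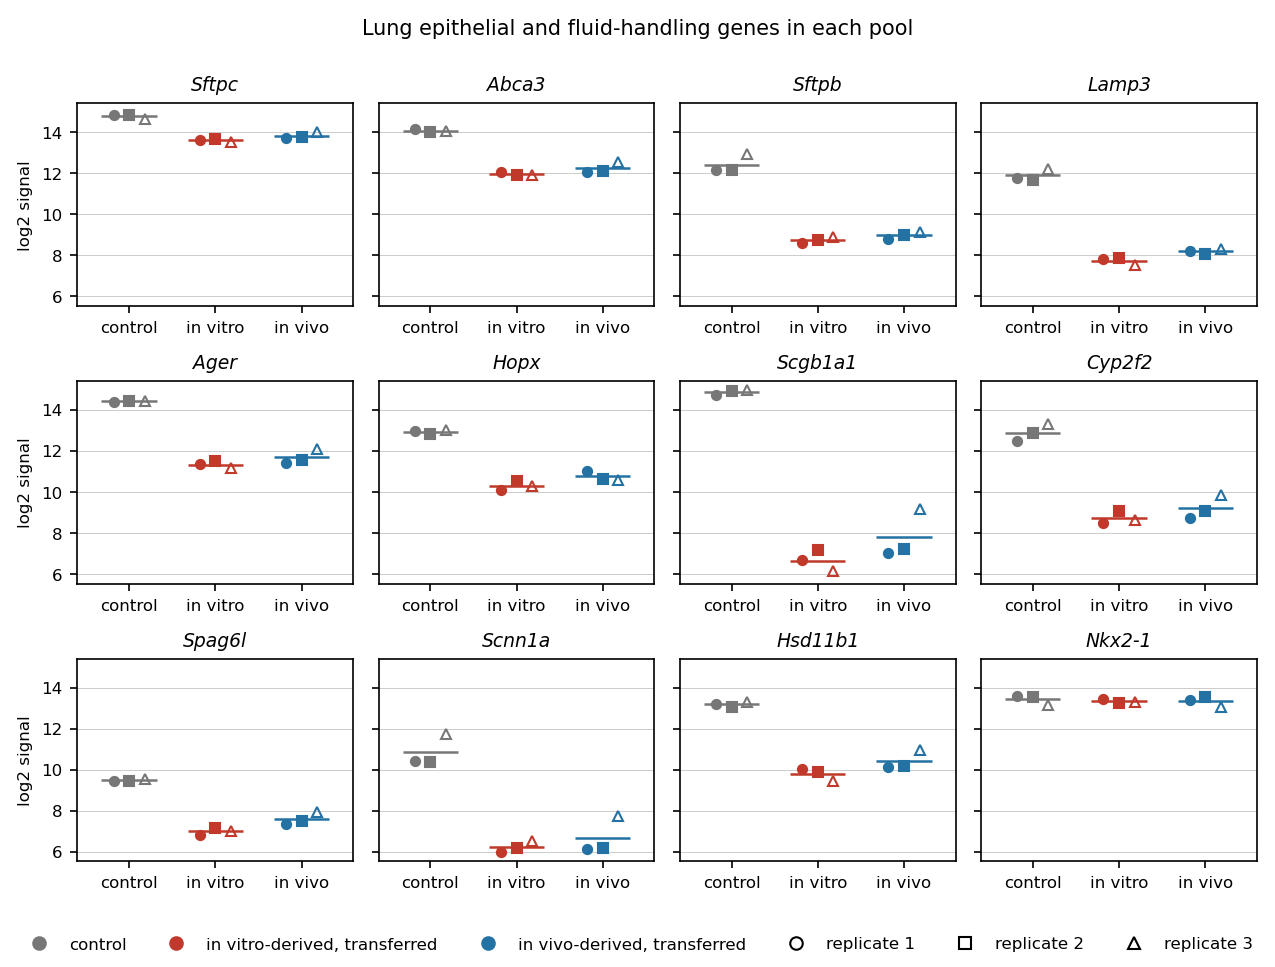
Each panel plots the log2 signal of 1 gene in 3 control pools (grey), 3 pools from in vitro-derived blastocysts (red) and 3 from in vivo-derived blastocysts (blue); symbols give the replicate number and lines the group means. The red and blue means lie close together beside the distance of both from the controls, except for Nkx2-1, which is level in all groups, and the blue triangle, replicate 3 of EG in vivo, is the highest transfer pool for Sftpc, Abca3, Sftpb, Lamp3, Ager, Scgb1a1, Cyp2f2, Spag6l, Scnn1a and Hsd11b1.

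Type I cell genes had the same small offset. Of 19 measured genes 0 passed, 17 had the lower mean in EG in vitro, and the median difference was -0.21; the same-number medians were -0.11, -0.09 and -0.29, and the median without replicate 3 of any group was -0.09. Hopx, a homeodomain protein of differentiated type I cells, was at 10.11, 10.53 and 10.31 against 11.03, 10.66 and 10.60. It was the only member of the list whose groups did not overlap, and its difference of -0.45 (-0.81 to -0.08) was largest between the pools numbered 1. Ager, the receptor for advanced glycation end products and the most abundant type I membrane protein, was at 11.34, 11.49 and 11.16 against 11.40, 11.58 and 12.08 (difference -0.36, interval -0.77 to 0.06). Pdpn, the surface glycoprotein podoplanin, had a difference of -0.24 (-0.56 to 0.08), and -0.46 to -0.02 was its interval with the block. Sec14l3, a lipid-binding protein, was at 8.75, 8.93 and 8.54 against 8.90, 9.07 and 9.98, and its difference of -0.58 was -0.25 without the third in vivo-derived pool. Leaving out the same pool gave -0.16 for Ager, -0.14 for Pdpn and -0.53 for Hopx.

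In the airway lists, too, 0 genes passed. Of 13 measured club cell genes 11 had the lower mean in EG in vitro, with a median of -0.13 and no gene without overlap. Scgb1a1, the secretoglobin that is the main secreted protein of club cells, had the most negative difference of all genes, -1.15 (-2.37 to 0.07). Its levels were 6.68, 7.18 and 6.13 in the in vitro-derived pools and 7.01, 7.24 and 9.19 in the in vivo-derived pools, beside 14.71, 14.93 and 14.96 in controls. Replicate 3 of EG in vivo was the highest of the transfer pools, with a same-number difference of -3.06; without it the difference was -0.46, and with replicates 1 and 2 alone -0.20. Cyp2f2, a cytochrome P450 of club cells, was at 8.51, 9.09 and 8.66 against 8.76, 9.09 and 9.86 (-0.48, interval -1.20 to 0.25). Cbr2, a carbonyl reductase of the same cells, was at 7.92, 8.26 and 7.86 against 8.05, 8.15 and 9.85. Without replicate 3 of EG in vivo the differences of Cyp2f2 and Cbr2 were -0.17 and -0.09.

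Ciliated cell genes had a median of -0.25, with 16 of 18 lower in EG in vitro and same-number medians of -0.11, -0.10 and -0.65. In 3 of the 18, against 4.24% of all genes, the in vitro-derived pools all lay below. Among the ones with the largest differences, Ccdc113, a protein of the cilium base and axoneme, was at 6.79, 6.93 and 6.41 against 6.95, 7.34 and 7.78 (-0.65, interval -1.17 to -0.12), and its groups were separated by a margin of 0.02. Pifo, a regulator of cilium disassembly, was at 6.39, 6.62 and 6.26 against 6.61, 6.84 and 7.64, with overlap between replicate 2 of EG in vitro and replicate 1 of EG in vivo. Spag6l, a protein of the central pair of motile cilia that is outside the list and was named for its low p with the block, was at 6.81, 7.18 and 7.0 against 7.36, 7.49 and 7.96, without overlap, with a difference of -0.60 (-1.01 to -0.20) and a second probe at -0.41. Foxj1, the transcription factor that starts the motile cilia programme, had nearly equal means: its levels were 6.17, 5.98 and 6.28 against 6.02, 5.75 and 6.62, and its difference was 0.02 (-0.49 to 0.53). Without replicate 3 of EG in vivo the differences were -0.43 for Ccdc113, -0.31 for Pifo and -0.42 for Spag6l. The list's median was -0.07 without that pool and -0.05 with replicates 1 and 2 alone.

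Genes of epithelial identity and early patterning had no common direction. Over 25 measured genes of lung epithelial identity, 12 had the higher and 13 the lower mean in EG in vitro, with a median of 0.00. In 2 of them the in vitro-derived pools all lay below, and in 0 above, where the shares over all genes were 4.24% and 1.17%. Nkx2-1 differed by 0.01 (-0.38 to 0.40). Sox9, a factor of the growing distal tips, was at 12.29, 12.27 and 12.60 against 12.29, 12.30 and 12.56, and Foxa2, a forkhead factor of the whole lung epithelium, at 8.23, 8.49 and 8.64 against 8.43, 8.29 and 8.51. The pools of both genes overlapped. Epcam, the epithelial adhesion molecule, was at 9.28, 8.62 and 6.01 against 8.07, 8.99 and 5.46, with 6.90, 8.27 and 4.79 in controls: replicate 3 was the lowest of every group, and the interval of the difference of 0.47 narrowed from -2.34 to 3.27 without the block to -0.31 to 1.24 with it.

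**Figure D2:**
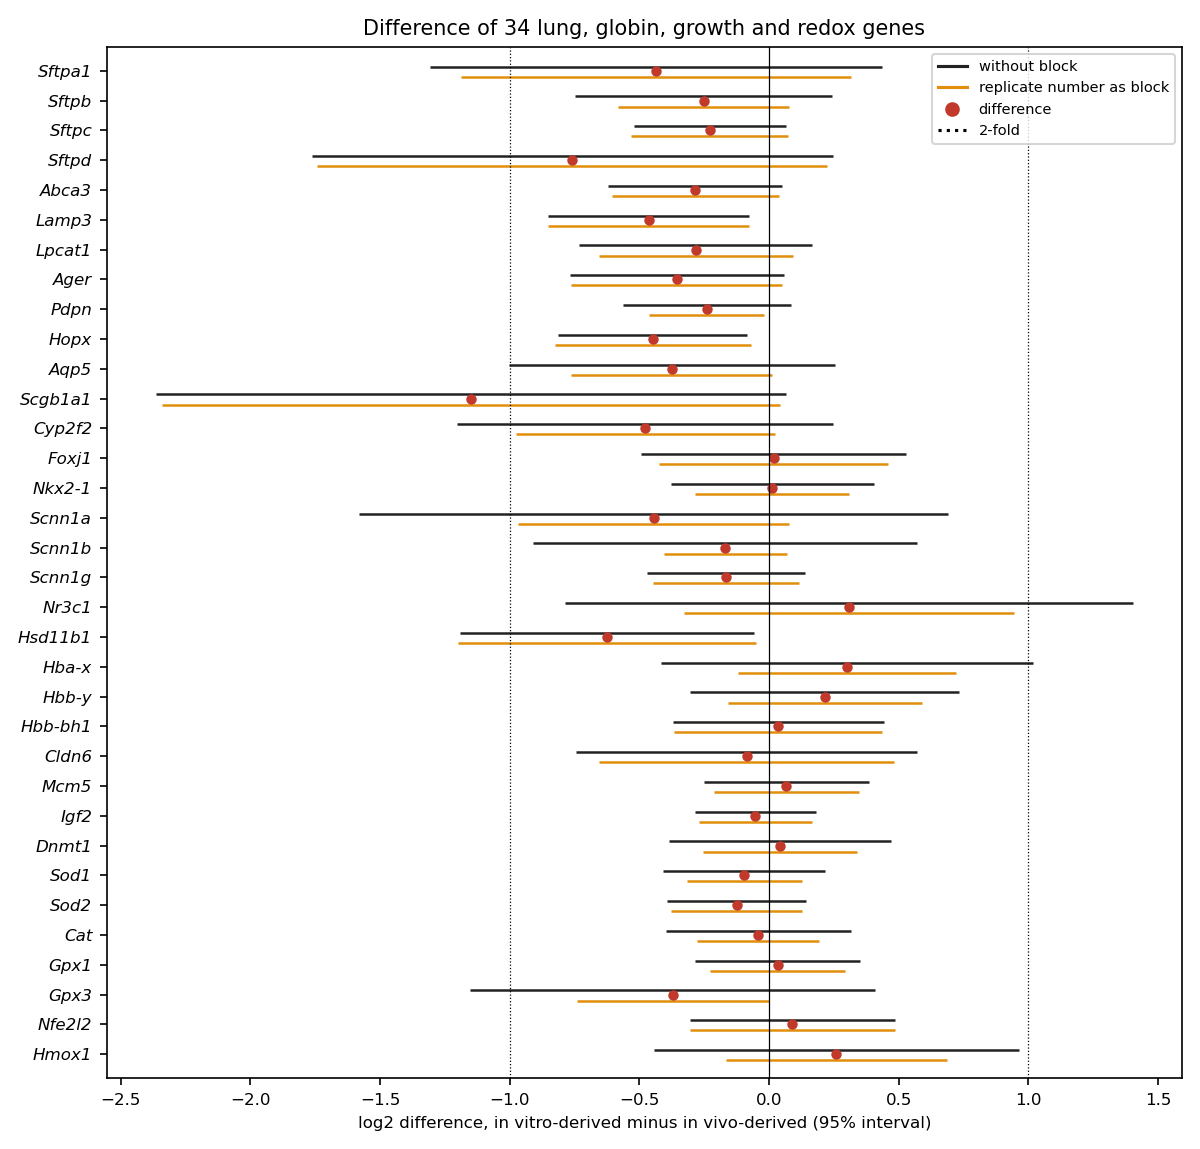
Each red point is the log2 difference of 1 gene, EG in vitro minus EG in vivo (n = 3 pools a group); the black bar is its 95% interval without a block, the orange bar with replicate number as a block, and dotted lines mark a 2-fold change. The bars of most of the 34 genes lie inside the dotted lines and cross 0, the exceptions that stay clear of 0 in both fits being Lamp3, Hopx and Hsd11b1, none of which passed after adjustment over all probes; Scgb1a1 has the widest bar of the airway genes.

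For ion and fluid transport, the question is whether the machinery that clears lung liquid at birth differed; 0 of 16 measured genes passed, 14 had the lower mean in EG in vitro, and the median was -0.15. The epithelial sodium channel has 3 subunits here. Scnn1a, the alpha subunit that is essential for the channel, was at 5.99, 6.19 and 6.54 against 6.16, 6.17 and 7.73, with 10.44, 10.39 and 11.75 in controls; its difference was -0.45 (-1.58 to 0.69), and 0.08 without replicate 3 of EG in vivo. Scnn1b, the beta subunit, differed by -0.17 (-0.91 to 0.57), or 0.11 without the same pool, and Scnn1g, the gamma subunit, by -0.17 (-0.47 to 0.14). Aqp5, the apical water channel of type I cells, was detected on 1 of 9 in vitro-derived arrays and 3 of 9 in vivo-derived arrays, at 4.96, 4.89 and 5.10 against 4.86, 5.39 and 5.82, so it was near the background in both groups, while controls held 11.38, 11.49 and 12.16. Atp1b1, a subunit of the sodium pump, was at 10.99, 11.08 and 11.31 against 11.18, 11.20 and 11.92.

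Glucocorticoid response genes had a median difference of -0.09, with 15 of 24 measured genes lower in EG in vitro and 0 past the test. In 5 of the 24, against 4.24% of all genes, the in vitro-derived pools all lay below. Hsd11b1, the enzyme that regenerates active glucocorticoid inside cells, was at 10.05, 9.89 and 9.46 against 10.13, 10.17 and 10.97, with 13.20, 13.04 and 13.31 in controls. Its difference was -0.63 (-1.19 to -0.06), it was -0.35 without replicate 3 of EG in vivo and -0.18 with replicates 1 and 2 alone, and its 4 probes ranged from -0.69 to 0.01, where the last was the dimmest. Nr3c1, the glucocorticoid receptor, had 7.80, 7.87 and 7.26 against 7.95, 7.97 and 6.08. The receptor was thus lowest in the pool where Hsd11b1 was highest, and its difference of 0.31 (-0.79 to 1.40) was -0.32 without that pool. Sult1a1, a sulfotransferase, was at 7.80, 7.75 and 7.46 against 7.94, 7.92 and 8.66, without overlap (-0.50, interval -1.05 to 0.04, and -0.26 without replicate 3 of EG in vivo). Tsc22d3, a textbook direct target of the receptor, was at 11.81, 11.64 and 11.54 against 11.83, 11.93 and 11.78, and Fkbp5, another, at 9.25, 9.0 and 9.12 against 9.14, 9.29 and 9.60.

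In the mesenchyme, vessels and matrix, differences were near those of all genes. Medians were 0.05 over 26 genes of mesenchyme and fibroblasts, 0.06 over 12 of smooth muscle, -0.03 over 28 of endothelium, -0.03 over 17 of basement membrane and -0.08 over 11 of elastic fibres, and 0 genes of these lists passed. Inmt, a methyltransferase abundant in mature lung mesenchyme, had the largest difference of its list, -0.69 (-1.46 to 0.07), at 6.37, 6.73 and 5.90 against 6.50, 6.81 and 7.76, where once more the third in vivo-derived pool stood high; controls held 13.88, 13.86 and 14.23. Lum, the collagen-binding proteoglycan lumican, was at 9.48, 9.20 and 8.76 against 9.08, 9.13 and 8.23 (0.33, interval -0.73 to 1.40). Lox, the enzyme that cross-links collagen and elastin, was at 12.37, 12.53 and 12.64 against 12.72, 12.65 and 12.67: its pools did not overlap, with a margin under 0.02 and a difference of -0.17 (-0.50 to 0.17). Prox1, the master factor of lymphatic endothelium, was at 5.38, 5.07 and 5.25 against 5.81, 5.28 and 6.00. In the mesothelium, Msln had 6.42, 6.88 and 6.03 against 6.79, 6.78 and 7.77 (-0.67, interval -1.37 to 0.03), while the list's 7 measured genes had a median of -0.08. Without replicate 3 of EG in vivo the differences were -0.32 for Inmt, 0.04 for Lum and -0.34 for Msln.

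Of 54 measured genes in the FGF, Hedgehog, Wnt, Notch, TGF-beta and retinoid pathways, which carry the signals between mesenchyme and epithelium, 0 passed. In EG in vitro 20 were higher and 34 lower, with a median of -0.05. The in vitro-derived pools all lay below in 5 of the 54 and above in 0, where the shares over all genes were 4.24% and 1.17%. Fgf7, a mesenchymal growth factor that acts on the epithelium, was at 8.07, 8.18 and 8.21 against 8.46, 8.60 and 8.59, with 9.68, 9.28 and 9.25 in controls. All 3 same-number differences of Fgf7 were close to -0.4, and its interval was -0.72 to -0.08. Fgf10, the growth factor that drives branching, had 9.98, 10.05 and 10.39 against 10.23, 10.23 and 10.67 (difference -0.24). Fgfr3, a receptor, had the largest difference of these lists, 0.61 (-0.48 to 1.70), at 6.49, 6.64 and 6.89 against 6.75, 6.16 and 5.29, and 0.22 without replicate 3 of EG in vivo. Shh, the epithelial ligand of the Hedgehog pathway, was at 10.64, 10.97 and 11.37 against 10.88, 10.79 and 11.39.

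**Figure D3:**
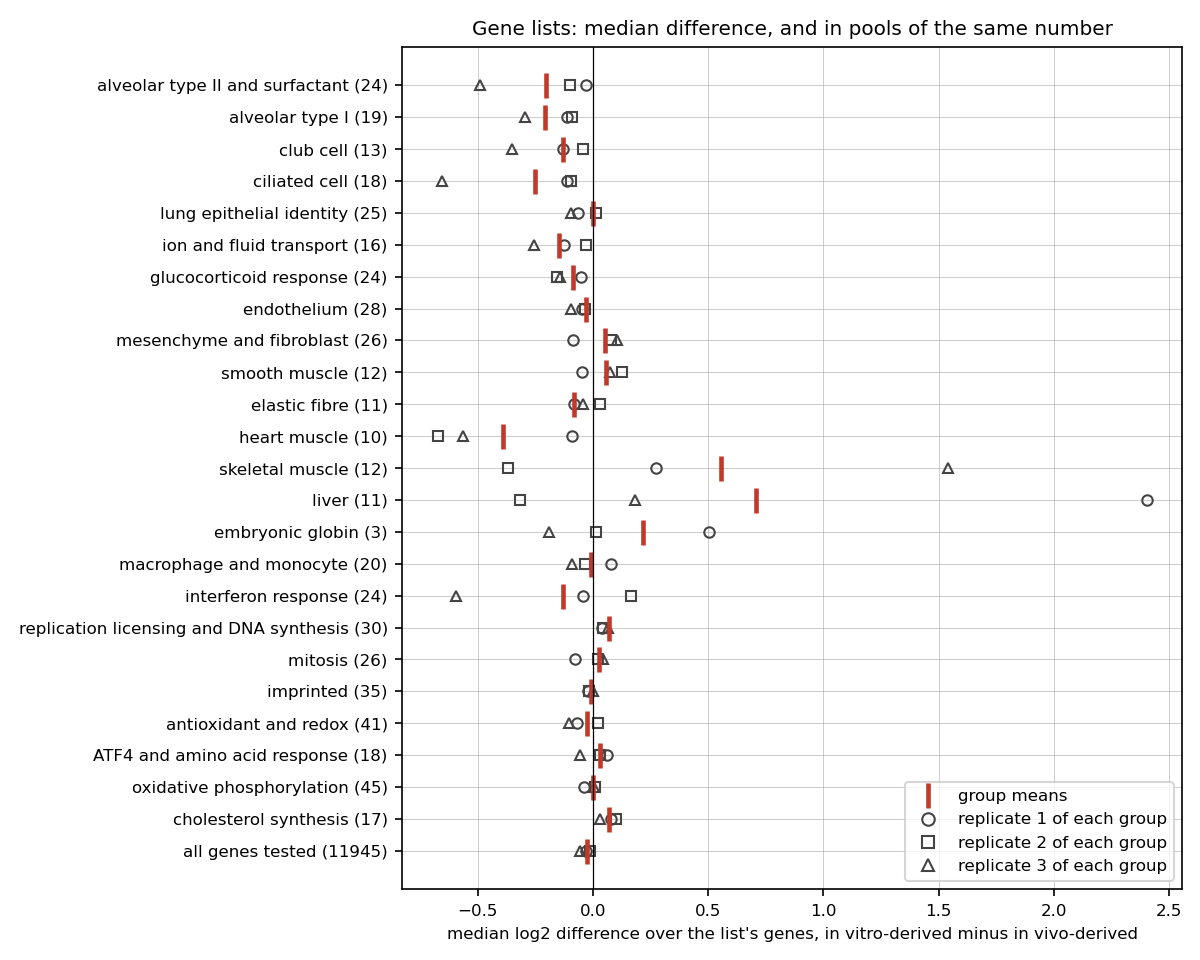
For each gene list (number of measured genes in brackets) the red bar is the median log2 difference of the group means, EG in vitro minus EG in vivo, and open symbols are the medians between pools of the same replicate number. Liver, skeletal muscle and heart muscle lists lie farthest from 0 and their symbols are far apart; the epithelial lists lie to the left of 0 mainly through the triangles, replicate 3; the red bars of the replication, imprinted and redox lists lie within 0.1 of 0.

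Genes of neighbouring organs were among those with the widest differences. Counting probes by size alone, a choice made after the values were seen, 12 were at least 2-fold higher and 3 at least 2-fold lower in EG in vitro. Of the 12, 6 belong to skeletal muscle (Acta1, Myh8, Mylpf) or liver (Afp, Ahsg, Apoa2), 1 was Fcer1g, 1 was the pseudogene Npm3-ps1 and 4 have no gene symbol, among them the probe with the largest difference, 2.16. The 3 lower ones were Scgb1a1 and both probes of Ankrd1. By the brightest probe per gene, all measured liver and skeletal muscle genes overlapped between the groups; the Apoa2 probe counted here is its second one, whose pools at 7.31, 5.12 and 5.26 lay above 4.80, 4.77 and 4.97.

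Liver genes were highest in 1 in vitro-derived pool. All 11 measured genes of the liver list had their highest level of the 6 in replicate 1 of EG in vitro, and the list's mean level was 8.36, 6.90 and 6.05 in the in vitro-derived pools against 6.06, 7.25 and 5.86 in the in vivo-derived pools, with 6.33, 6.69 and 6.02 in controls. Afp, alpha-fetoprotein, the main plasma protein made by fetal liver, was 3.58 higher in replicate 1 of EG in vitro than in replicate 1 of EG in vivo, which held 7.42, while replicates 2 and 3 held 8.88 and 6.51 against 9.22 and 6.23. Ahsg, fetuin-A, was at 9.40, 7.39 and 6.12 against 6.08, 7.97 and 5.58, and Ttr, transthyretin, at 9.31, 7.70 and 6.42 against 6.09, 8.37 and 6.09. Replicate 1 of EG in vitro and replicate 2 of EG in vivo were the high pools in each of these 3 genes. The list's median difference of 0.71 was 0.09 without replicate 1 of EG in vitro, and between same-numbered pools it was 2.40, -0.32 and 0.18.

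Skeletal muscle genes were highest in another in vitro-derived pool. Replicate 3 of EG in vitro held the highest level for 11 of 12 measured genes, with a list mean of 7.95 against 6.35 and 5.84 in the other pools of its group and 5.82, 6.41 and 6.39 in the in vivo-derived pools. Acta1, skeletal alpha-actin, was at 7.84, 5.91 and 10.13 against 5.89, 7.01 and 6.38, and Myl1, a fast-muscle myosin light chain, at 8.34, 6.80 and 11.17 against 6.88, 8.99 and 8.29. Without that pool the median difference of 0.55 was -0.06. Heart muscle genes leaned the other way: all 10 measured had the lower mean in EG in vitro, with a median of -0.39 and 0 past the test. In 1 of the 10, against 4.24% of all genes, the in vitro-derived pools all lay below. Myh6, the atrial myosin heavy chain, was at 8.09, 8.49 and 8.74 against 8.31, 9.20 and 9.56, and Myl7, the atrial light chain, at 8.18, 8.71 and 8.68 against 8.54, 9.34 and 9.42. Each same-number difference of both genes was negative, but the intervals were -1.44 to 0.27 for Myh6 and -1.22 to 0.07 for Myl7, against -0.99 to -0.18 and -0.90 to -0.25 with the block. A second Myh6 probe differed by -0.07, and the brighter one by -0.32 without replicate 3 of EG in vivo. Ankrd1, a cardiac ankyrin repeat protein and a target of YAP signalling, was at 6.06, 6.32 and 6.16 against 6.37, 7.85 and 7.50, with 8.58, 8.26 and 8.78 in controls. Whether the content of neighbouring tissue in the dissected lobes bears on any difference between the groups was not tested.

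**Figure D4:**
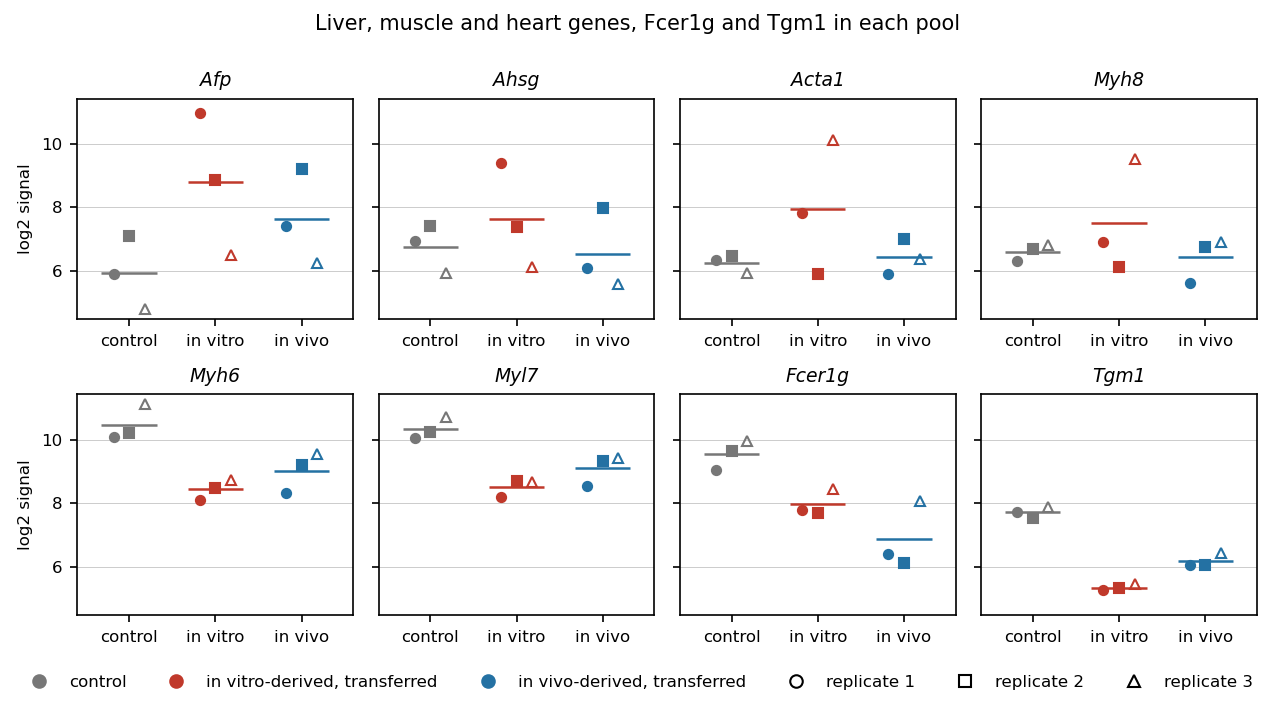
Panels plot the log2 signal of liver (Afp, Ahsg), skeletal muscle (Acta1, Myh8) and heart muscle (Myh6, Myl7) genes, of Fcer1g and of Tgm1 in each control (grey), EG in vitro (red) and EG in vivo (blue) pool; symbols give the replicate number and lines the group means. Single red pools carry the group mean for liver (replicate 1) and skeletal muscle (replicate 3), whereas the 3 red pools of Tgm1 all lie below the 3 blue ones, with a gap wider than the spread of either group.

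No blood or immune gene passed the test. Embryonic globins, made by the primitive red cells of the yolk sac, were high in both: Hbb-y was at 12.91, 12.27 and 12.20 against 12.25, 12.10 and 12.40 and Hba-x at 9.43, 9.14 and 10.35 against 9.38, 9.13 and 9.51, where controls held at most 8.15 and 6.83. Their differences were 0.22 (-0.30 to 0.73) and 0.30 (-0.42 to 1.02). Without replicate 1 of EG in vitro that of Hbb-y was -0.01, and without replicate 3 that of Hba-x was -0.05. Most adult globin probes stood near the highest signal on the arrays, 15.11, where differences cannot be read, so their median of -0.01 does not show that the levels were alike. Klf1, the transcription factor of red cell precursors, was at 7.18, 5.92 and 6.08 against 5.72, 6.04 and 6.07, so 1 pool, the one with high liver genes, stood out. Interferon response genes had a median of -0.13 over 24 genes, and replicate 3 of EG in vivo held the highest level for 19 of them; Ifit3 was at 5.79, 6.27 and 6.98 against 5.37, 5.49 and 8.35. Without that pool the median was 0.10.

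Fcer1g had the largest difference among immune genes. It encodes the common gamma chain of Fc receptors on macrophages and mast cells, and stood at 7.79, 7.69 and 8.44 against 6.39, 6.10 and 8.09, with 9.04, 9.64 and 9.96 in controls. All 3 same-number differences were positive, although replicate 3 of EG in vivo lay above 2 of the in vitro-derived pools, and the difference of 1.11 had an interval of -0.03 to 2.26, or 0.44 to 1.78 with the block. It was 0.74 without replicate 2 and 1.73 without replicate 3 of EG in vivo. Over the macrophage and monocyte list, Fcer1g included, 9 of the 20 measured genes had the higher mean and 11 the lower, with a median of -0.01 and 0 past the test. Mgl2, a lectin of tissue macrophages, was at 6.00, 6.47 and 6.43 against 5.87, 5.54 and 6.02, and its second, dimmer probe differed by only 0.06.

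Proliferation genes had small differences. Replication genes had a median difference of 0.07, with 24 of 30 higher in EG in vitro and 0 past the test. In 1 of the 30, against 1.17% of all genes, the in vitro-derived pools all lay above. The same-number medians were 0.04, 0.04 and 0.06. Mcm5, a subunit of the helicase loaded at replication origins, was at 12.45, 12.54 and 12.72 against 12.41, 12.39 and 12.70 (0.07, interval -0.25 to 0.39), with 9.88, 9.58 and 9.71 in controls. Ccna2, cyclin A2, was at 10.51, 10.15 and 7.47 against 9.56, 10.22 and 6.98, and controls at 7.10, 8.26 and 4.68, another gene that was lowest in replicate 3 of every group. Over 26 mitosis genes the median was 0.02. Nuf2, a kinetochore protein, was the exception in that list. Its pools at 5.88, 6.05 and 5.88 lay well below 6.54, 6.59 and 6.52, with controls at 5.08, 4.84 and 4.93. Its interval was -0.87 to -0.36, and its difference of -0.62 was -0.24 in the authors' processed matrix. Cdkn2b, an inhibitor of the G1 kinases, was at 7.89, 7.55 and 7.35 against 8.04, 7.95 and 8.70 (-0.63, interval -1.13 to -0.12), and its difference was -0.39 without replicate 3 of EG in vivo.

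Imprinted genes, expressed from the copy of 1 parent and often examined after embryo culture, showed no called difference. Of 35 measured genes 0 passed, 14 were higher and 21 lower in EG in vitro, and the median was -0.01, with same-number medians of -0.02, -0.02 and 0.00. Igf2, the fetal growth factor, was at 14.75, 14.69 and 14.66 against 14.76, 14.75 and 14.74, a difference of -0.05 (-0.29 to 0.18). Such an interval leaves room for less than a 1.5-fold change in signal, though Igf2 and Dlk1 lay close to the highest signal on the arrays. Dlk1, Mest and Igf2r differed by 0.00, -0.03 and -0.01. Grb10, a brake on insulin and IGF receptors, was at 14.26, 14.30 and 14.34 against 14.43, 14.46 and 14.43, without overlap at a difference of -0.14.

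The imprinted genes with the largest differences were Peg3 and Meg3. Peg3, a zinc-finger gene expressed from the paternal copy, was at 11.35, 11.07 and 11.46 against 11.14, 10.50 and 10.77. Its difference of 0.49 (-0.09 to 1.07, or 0.14 to 0.85 with the block) was positive in all 3 same-number differences, and its 3 probes ranged from 0.47 to 0.83. Meg3, a long noncoding RNA of the maternal copy, was at 7.06, 7.29 and 6.64 against 7.19, 6.51 and 6.10 (0.40, interval -0.28 to 1.07, and 0.14 without replicate 3 of EG in vivo). Of the enzymes that copy and set DNA methylation, Dnmt1, the maintenance enzyme, differed by 0.04 (-0.38 to 0.47), and Dnmt3b, a de novo enzyme, by -0.02. Ezh2, the Polycomb methyltransferase, was at 10.98, 10.75 and 10.93 against 10.94, 10.55 and 9.53, so its difference of 0.55 lay in the third pools, and a second probe had a difference of -0.01. H19 had no probe among those kept, so its level is not given.

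Redox balance was among the measures the study set out to compare. Of 41 measured antioxidant and redox genes 0 passed; 15 were higher and 26 lower in EG in vitro, with a median of -0.02. Sod1, the cytosolic superoxide dismutase, was at 12.73, 12.76 and 12.90 against 12.80, 12.77 and 13.11 (-0.10, interval -0.41 to 0.22), and Sod2, the mitochondrial one, differed by -0.13 (-0.39 to 0.14). Cat, catalase, differed by -0.04 (-0.40 to 0.31) and Gpx1, the main cytosolic glutathione peroxidase, by 0.03 (-0.28 to 0.35). For the brightest probes of these 4 enzymes the intervals keep within 1.5-fold in either direction, and dimmer probes differed by 0.21 and 0.24 for Sod1 and by 0.31 for Cat. Gpx3, the secreted peroxidase, was at 9.46, 9.44 and 9.80 against 9.48, 9.68 and 10.65, with 12.46, 12.46 and 13.32 in controls, and had a wider interval (-1.15 to 0.41), with a difference of -0.37 that was -0.01 without replicate 3 of EG in vivo. Xdh, xanthine dehydrogenase, whose oxidase form releases superoxide, was at 6.93, 6.80 and 6.82 against 7.07, 7.17 and 7.85, without overlap (-0.52, interval -1.13 to 0.10, and -0.27 without the same pool). Hmox1, heme oxygenase 1, leaned the other way at 7.39, 7.66 and 7.84 against 7.15, 6.91 and 8.05 (0.26, interval -0.44 to 0.96, and 0.03 without replicate 2 of EG in vivo), and Nfe2l2, the transcription factor of the antioxidant response, differed by 0.09 (-0.31 to 0.48).

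Metabolic and stress lists were close to 0. Medians were 0.00 over 45 genes of oxidative phosphorylation, 0.01 over 15 of glycolysis, 0.03 over 18 of the ATF4 and amino acid response, 0.00 over 22 heat shock proteins and chaperones, -0.10 over 21 of the hypoxia response and 0.07 over 17 of cholesterol synthesis, with 0 genes past the test in each. Phgdh, the first enzyme of serine synthesis, was at 6.96, 7.25 and 7.79 against 6.93, 7.20 and 6.70, so the groups matched in replicates 1 and 2 and parted in the third. Manf, a secreted factor of the endoplasmic reticulum stress response, was at 7.06, 7.19 and 5.32 against 6.00, 6.67 and 4.81, higher in EG in vitro in each same-number difference (0.70, interval -0.83 to 2.22, or 0.25 to 1.14 with the block), and ranged from 0.19 without replicate 3 of EG in vivo to 1.30 without replicate 3 of EG in vitro. Hspa5, the chaperone that marks the same response, was at 12.34, 12.03 and 9.21 against 11.49, 12.14 and 9.17, with no common direction.

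Ranked by p alone, with clone and model names left out, the genes most separated were lower in EG in vitro. Tgm1, a transglutaminase that cross-links proteins in the surface layer of squamous epithelia, was at 5.24, 5.32 and 5.44 in the in vitro-derived pools, which detected it on 5 of 9 arrays, and at 6.05, 6.04 and 6.43 in the in vivo-derived pools, which detected it on all 9; controls held 7.72, 7.53 and 7.89. Its difference of -0.84 (-1.19 to -0.49) is more than the range of either group, and its unadjusted limma p of 0.000463, or 6.3e-05 with the block, did not pass after adjustment. Near the background the size of a difference depends on how background is treated, and Tgm1 had -0.27 in the authors' processed matrix. Nuf2, Aire and Cyp3a13 had -0.24, -0.20 and -0.16 there. Klhdc9, a kelch-domain protein, was at 6.73, 6.77 and 6.62 against 7.35, 7.14 and 7.33, and Enkur, an axonemal protein of motile cilia and sperm tails, at 6.88, 7.10 and 6.75 against 7.33, 7.52 and 7.60. Mslnl, a gene related to mesothelin, was at 7.27, 7.25 and 6.92 against 7.63, 7.92 and 8.61 (-0.91, interval -1.49 to -0.32).

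The other genes of lowest p in this direction were Cyp3a13, Aire, Slc7a10, Akr1c19 and Ttc39b, with differences from -0.58 to -0.40. Aire, known as a regulator of self-antigen expression in the thymus, was at 6.14, 6.32 and 6.16 against 6.47, 6.76 and 6.78, while controls held 4.60, 4.50 and 4.50; a dimmer second probe differed by -0.10. Slc7a10, an amino acid transporter, was at 6.82, 6.73 and 6.49 against 7.07, 7.14 and 7.56, with a mean of 10.03 in controls. Tgm1, Klhdc9, Cyp3a13, Enkur, Mslnl, Slc7a10, Akr1c19 and Ttc39b were higher in every control pool than in any transfer pool, and Nuf2 and Aire lower. With the block, Fmo1, a flavin monooxygenase of detoxification, also ranked among the lowest: it was at 8.65, 8.87 and 8.74 against 9.28, 9.34 and 10.35, and its difference of -0.91 was -0.56 without replicate 3 of EG in vivo, while a dimmer second probe had 0.32.

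In the other direction the separations were narrower. Ptn, the growth factor pleiotrophin, was at 10.52, 10.30 and 10.65 against 10.25, 10.01 and 10.08, with 8.76, 8.75 and 8.84 in controls (0.37, interval 0.08 to 0.67). Ankrd13b, a ubiquitin-binding protein of endosomes, was at 6.99, 6.60 and 7.45 against 6.52, 6.57 and 5.95 (0.67, interval 0.13 to 1.21), where the nearest pools lay 0.04 apart. Uap1, which makes the sugar donor UDP-N-acetylglucosamine, was at 9.97, 9.77 and 9.96 against 9.53, 9.49 and 9.47, and Metrn, a secreted factor of glial differentiation, at 9.44, 9.51 and 9.69 against 9.12, 9.31 and 9.23. Lrfn2, Mgl2, Lats1, Olfml2b and Pop4 had differences from 0.31 to 0.58. The Hippo kinase gene Lats1 was among them through 1 probe, at 0.58, or 0.37 without replicate 3 of EG in vivo, while another of its probes differed by -0.06. Hpx, hemopexin, had the lowest p of the named genes in this direction, at 5.31, 5.36 and 5.15 against 4.81, 4.78 and 4.95. No in vivo-derived array detected it, so no fold is given. A second Hpx probe differed by 0.08, and the first by 0.14 in the authors' processed matrix. Lrfn2, Mgl2, Lats1 and Ankrd13b had 0.12, 0.18, 0.18 and 0.31 in that matrix. Ptn, Uap1, Olfml2b, Metrn and Pop4 had 0.34, 0.35, 0.26, 0.28 and 0.30 there.

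**Figure D5:**
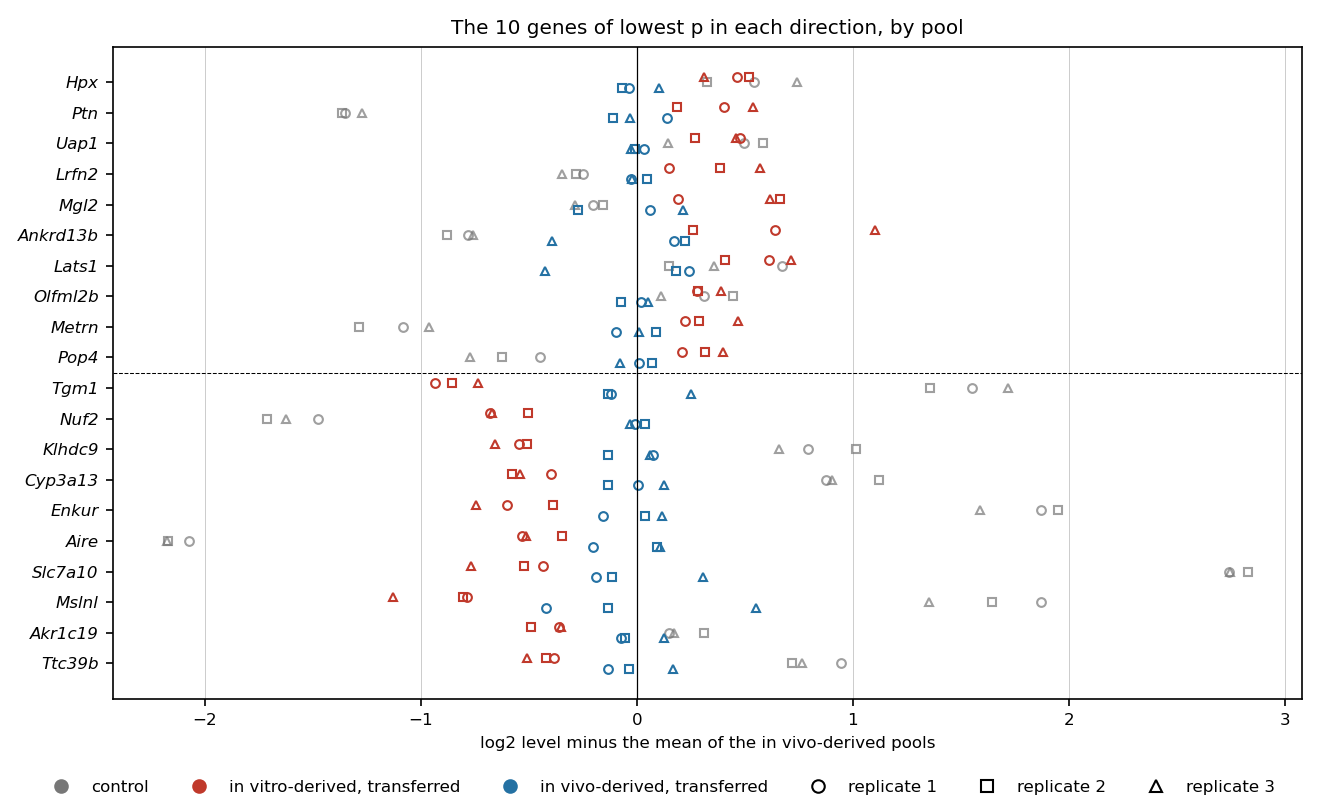
For the 10 genes of lowest p in each direction, none of which passed after adjustment, points give each pool's log2 level minus the mean of the in vivo-derived pools: control grey, EG in vitro red, EG in vivo blue, with symbols for the replicate number. Genes with clone and model names were left out of the ranking. Red and blue points overlap in Mgl2 alone, and the control points of Tgm1, Enkur, Slc7a10 and Mslnl lie farthest to the right, while those of Ptn, Metrn, Nuf2 and Aire lie farthest to the left.

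Detection was compared as well. Of all 45281 probes, 17427 were detected on all 9 arrays of both groups and 16819 on none of either. No probe was detected on all arrays of EG in vitro and none of EG in vivo, and 1 was detected in the reverse way, a probe of Masp2, a protease of the lectin pathway of complement, at 4.75, 4.89 and 5.09 against 5.63, 5.65 and 5.81. Detection on at least 6 more arrays occurred for 63 probes in the in vitro-derived and for 5 in the in vivo-derived group, on a background in which the in vivo-derived arrays detected between 19762 and 21982 probes and the in vitro-derived arrays between 21227 and 22794.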

How the data were processed

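Intensity values, the mean bead signal per probe and array, were deposited by the authors without normalization, with a detection p-value per array, per the file headers. The authors' processed matrix, also intensity, was quantile normalized with no background subtraction, as its values show; the software was not named in the sources used here. All value columns were mapped to a sample. Signals were corrected and quantile normalized to log2 with neqc in limma 3.58.1 (R 4.3.3, offset 16). Probes with detection p under 0.05 on at least 6 of 9 arrays of a group were kept, technical arrays averaged, and lmFit and eBayes run over all 3 groups (6 residual and 2.41 prior degrees of freedom; 4 and 3.55 with replicate number as a block), with Benjamini-Hochberg adjustment of two-sided p-values over the kept probes. The block was used in a second fit because replicate 3 was dimmer in each group. Deviations of same-numbered pools correlated positively, but so did those of crosswise pairs of numbers 1 and 2. The labels do not say what the numbers share. Of the probes, 34885 had 1 gene symbol, 18 several and 10378 none; 34807 were matched by gene identifier to RefSeq names of GRCm38.p6. Named genes were the 10 of lowest p in each direction in each fit (none passed), with clone and model names such as Rik, Gm and LOC left out. The 2 with the largest change in each of 50 lists, and a set of lung, globin, growth and redox genes, were also named. Others were added after their values were seen. Members and lists were chosen with earlier results of these data known. On simulated data, the mean estimate of added differences was checked against their size. That check does not say how small a difference the test could call. The number of pools limits the precision.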

Additional observations from a re-analysis of the deposited data

How the results depend on the processing

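The count of probes past the threshold was 0 in 22 of 24 alternative settings of the fit without the block, among them the replicate block (0), the transfer groups alone, replicates 1 and 2 alone, other normalizations and filters, and leaving out each pool in turn (0 to 0). It was 1, a probe with no gene symbol and lower in EG in vitro, when all 27 arrays entered with the pool as a random block. It was 2, Tgm1 and Masp2, both lower, with array weights; these ranged from 0.146 for control replicate 3 to 20.9 for control replicate 1, and their estimate stopped before convergence. In the fit with the block the count was 0 in 22 of 23 settings, and 8, of which 2 were higher (Fcer1g and a probe with no symbol) and 6 lower (Akap14, Fmo1, Mslnl and 3 with no symbol), when all 27 arrays entered with the pool as a random block; the technical arrays of a pool are not independent samples. The pairing by replicate number therefore changed no call in the pool averages. Probes under an unadjusted p of 0.05 numbered from 27, in a test beyond 1.2-fold, to 2761, with array weights. Settings that alter only the spread, such as the replicate block or leaving out a control pool, cannot change the sign of a gene's difference. Differences were not called, so a change of sign was counted and not read as a reversal. With those settings included, 108 of 156 named genes and 13 of 50 lists kept their sign in every setting. Lists that kept it included alveolar type II (-0.29 to -0.04), alveolar type I (-0.30 to -0.09), ciliated (-0.35 to -0.04), ion and fluid transport (-0.20 to -0.06), heart muscle (-0.73 to -0.17), liver (0.09 to 1.19) and replication (0.01 to 0.09). The small number of pools and the dimmer replicate 3 limit what could be detected.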
